A study of Mus musculus with 11 samples.

Results

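Lungs of C57BL/6 mice given naphthalene and then osimertinib were compared with lungs of C57BL/6 mice given naphthalene alone. The comparison used 8 of the 11 libraries of the series: osimertinib 1 to 5 and naphthalene 1 to 3, chosen by their labels and not by any measured value. The other 3 libraries, from untreated control mice of the same strain, are given as background and shared in the estimate of the spread. Both groups compared had naphthalene, so the comparison asks what the drug adds to the injury, and no group had the drug without it. Neither dose nor time after treatment, sex, age or batch is in the labels. Whether the replicates are separate animals is not stated either, so the p-values reflect only how these libraries vary, and that variation may be technical. Total RNA was depleted of ribosomal RNA and made into directional libraries.

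Osimertinib is an irreversible inhibitor of the EGF receptor (EGFR), used against lung cancers with EGFR mutations, and pneumonitis is a known adverse effect of it. Naphthalene is turned into a toxic product by the cytochrome P450 Cyp2f2 in club cells, the secretory cells of the mouse airway, which die and are later replaced. Interferons act on most cells of the lung through transcription factors such as STAT2, which switch on antiviral and antigen presentation genes, and B cells and T cells enter the lung from blood and lymphoid tissue.

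The libraries held between 5045361 and 13009975 gene reads, and values are reads scaled to a library size corrected by a normalisation factor, here called normalised values. Genes with a mean of at least 1 over the 11 libraries were kept (16225 genes), and differences are of log2(value + 1), osimertinib minus naphthalene, which understates the change of low genes. The 3 naphthalene libraries and osimertinib 2 shared a mark that the other libraries lacked: the unnamed gene ENSMUSG00000119584 took 46.8 to 60.3% of the reads in naphthalene and 43.9% in osimertinib 2, and at most 0.0337% elsewhere. Outside this gene these 4 libraries held 2018541 to 2965328 reads, against at least 8418669 in the others. The mark was not confined to this gene. Lars2 took 2.56 to 3.95% of the reads in naphthalene, 3.29% in osimertinib 2 and at most 0.00442% elsewhere. For the mitochondrial ribosomal RNA mt-Rnr1 these shares were 1.70 to 4.36%, 1.91% and at most 0.0271%. For mt-Rnr2 they were 2.57 to 7.41%, 3.33% and at most 1.43%. Read share and treatment are therefore aligned in all libraries but osimertinib 2, and its values are given beside those of the group. Osimertinib 3 and naphthalene 3 stood apart on the first principal component (scores -72.7 and -26.2, all others between -1.14 and 29.2), and osimertinib 3 had the highest summed level of ribosomal protein genes (12422, against 2819 to 5969 in the other 7 libraries compared). Xist, the RNA of the inactive X chromosome, was at 559 to 1130 in all 11 libraries. The Y-linked gene Kdm5d was also kept, with all osimertinib libraries below all naphthalene libraries (log2 difference -0.56). It was low: Xist and Kdm5d summed to 759.5 to 1133.6 in naphthalene, where Xist alone was at 756.8 to 1130.5. In osimertinib the sum was 559.4 to 1024.3 and Xist alone 558.6 to 1022.4. A difference in sex between the groups was not tested. Y-linked Uty was too low to be kept, and Ddx3y and Eif2s3y were not among the genes measured.

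Over all genes no difference passed the test. With limma and Benjamini-Hochberg adjustment over 16225 genes, 0 genes (0%) had an adjusted p under 0.05, and the smallest adjusted p was 0.105, for Oasl2. At an unadjusted p under 0.05, 1148 genes (7.08%) were higher and 523 (3.22%) lower, together 10.3% of all genes, and 60.5% of genes had a difference above 0. In 619 genes (3.82%) all 5 osimertinib libraries lay above all 3 naphthalene libraries, and in 344 (2.12%) all lay below; such groups are called not overlapping, and together they were 5.94% of all genes. On whole reads recovered from the values edgeR called 0 genes and DESeq2 33 (0.231% of 14264), 13 higher (0.0911%) and 20 lower (0.14%). The 33 included 6 B cell genes, 4 interferon-stimulated genes, 3 matrix genes and 4 mitochondrial transcripts, and in 30 of them the groups did not overlap. The split between the directions depends on the scaling: 64.3% of the genes that did not overlap were higher on the deposited scale, 50.6% with median-ratio scaling (484 and 472 genes), 43.8% with quantile normalisation (410 and 527), 98.1% with equal totals without ENSMUSG00000119584 (1214 and 24) and 100% with equal totals (8673 and 2). Verbs such as rose and fell are kept below for genes that DESeq2 called, and values alone are given for all others. DESeq2 was 1 alternative, and neither limma, the main test, nor edgeR called any of these genes. Their limma adjusted p was 0.105 to 0.312. Most named genes were chosen by small unadjusted p or lack of overlap, so their separation is partly built in.

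Osimertinib 2 mostly lay on the same side as the other 4 osimertinib libraries. Of 978 genes (6.03%) in which the other 4 lay above naphthalene, osimertinib 2 did too in 619 (63.3%), lay inside the naphthalene range in 268 and below it in 91. Of 470 genes (2.9%) in which the other 4 lay below, it did too in 344 (73.2%). These genes were chosen by the same naphthalene values, and a further library would mostly lie on that side without any difference between the groups. The shares of 63.3% and 73.2% are therefore a description and no support for a difference. Over all genes kept, osimertinib 2 lay above the naphthalene range in 23% and below it in 21.3%. The shares of 23% and 21.3% are the background for the counts of osimertinib 2 that follow.

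**Figure D1:**
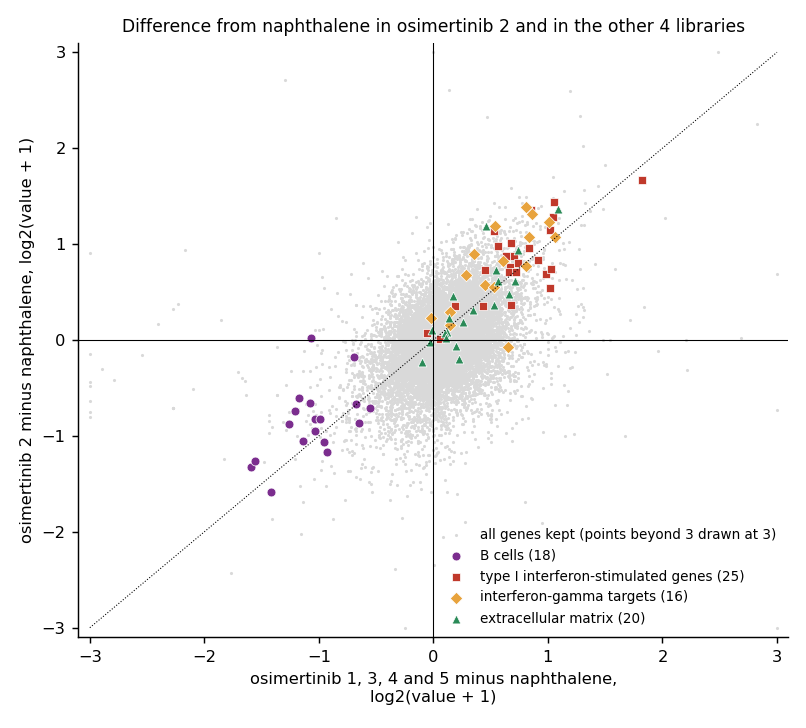
Each point is a gene kept: the x axis is the mean difference of osimertinib 1, 3, 4 and 5 from naphthalene and the y axis that of osimertinib 2, both in log2(value + 1), with points beyond 3 drawn at 3. B cell genes lie at the lower left (medians -1.05 and -0.85) and interferon-stimulated genes at the upper right (0.70 and 0.80), near the dotted line of equal difference.

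Interferon-stimulated genes were higher after osimertinib. Of 25 type I interferon-stimulated genes kept, 24 lay above 0, 11 did not overlap and were higher, and 21 had an unadjusted p under 0.05, with a median log2 difference of 0.74 against 0.06 over all genes. Osimertinib 2 lay above the naphthalene range in 22 of the 25. Of 16 genes known as targets of interferon gamma, 16 lay above 0 and 6 did not overlap (median 0.59), and osimertinib 2 was above the range in 13. In the control libraries the same lists lay above naphthalene, by a median of 0.19 and 0.35, so the osimertinib libraries exceeded control by a median of 0.55 for the first list and 0.17 for the second.

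Promoters of 4 of these genes are shown because they carry the interferon-stimulated response element, a sequence that STAT2 and IRF9 bind as part of a complex. They are the 4 genes with the smallest p among those whose groups did not overlap and whose window holds the motif. Each is the RefSeq window of 250 bases before to 50 after the gene start in GRCm38.p6, 5′ to 3′ on the gene's strand. Capitals mark GAAA followed by any 2 bases and GAAA, on either strand (TTTC, 2 bases and TTTC where it lies on the other), overlapping matches included. The windows are at chr11:58214727-58215026 (plus strand, Irgm2), chr4:156200769-156201068 (minus strand, Isg15), chr3:142559794-142560093 (plus strand, Gbp3) and chr10:128270248-128270547 (plus strand, Stat2). The reads were assigned on GRCm39, so these coordinates were used for the sequences alone.
Irgm2: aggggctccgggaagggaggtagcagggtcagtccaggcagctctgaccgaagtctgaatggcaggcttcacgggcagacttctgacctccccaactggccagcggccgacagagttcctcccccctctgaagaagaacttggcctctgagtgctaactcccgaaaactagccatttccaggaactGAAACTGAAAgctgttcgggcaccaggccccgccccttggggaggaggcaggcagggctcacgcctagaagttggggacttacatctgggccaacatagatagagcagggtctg
Isg15: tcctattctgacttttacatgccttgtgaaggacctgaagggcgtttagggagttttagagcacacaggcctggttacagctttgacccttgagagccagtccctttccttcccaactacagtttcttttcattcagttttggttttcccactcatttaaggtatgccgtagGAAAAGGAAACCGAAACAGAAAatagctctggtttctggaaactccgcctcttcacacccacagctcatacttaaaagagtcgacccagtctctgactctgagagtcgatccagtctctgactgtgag
Gbp3: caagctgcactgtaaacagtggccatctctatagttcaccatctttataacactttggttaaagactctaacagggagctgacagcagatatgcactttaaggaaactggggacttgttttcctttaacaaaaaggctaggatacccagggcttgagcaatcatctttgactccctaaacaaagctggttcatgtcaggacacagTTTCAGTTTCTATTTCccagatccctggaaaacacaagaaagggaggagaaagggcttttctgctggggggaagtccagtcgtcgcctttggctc
Stat2: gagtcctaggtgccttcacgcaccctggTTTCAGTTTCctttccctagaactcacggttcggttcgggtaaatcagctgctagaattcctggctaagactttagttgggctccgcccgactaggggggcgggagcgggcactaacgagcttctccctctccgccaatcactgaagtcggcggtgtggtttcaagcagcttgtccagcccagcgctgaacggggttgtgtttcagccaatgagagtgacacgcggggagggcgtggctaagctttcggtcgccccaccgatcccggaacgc

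The motif lay within the last 78 bases before the start in Irgm2, Isg15 and Gbp3, with 3 overlapping matches in Isg15 and 2 in Gbp3, and 222 bases before it in Stat2. In all, 11 of 17 type I interferon-stimulated genes with a window held the motif, and 10 of 12 interferon gamma targets, against 3.97% of 11222 genes kept with a window. Counted by window, it was 11 of 18 and 10 of 14, against 3.44% of all 32851 windows of the same length. By gene it was 3 of 10 for MHC class I presentation and 2 of 12 for B cells. The lists were chosen as interferon genes, so this contrast describes the lists and not the difference after osimertinib. Of all 29 interferon genes with a window 21 held the motif, and of the 11 whose groups did not overlap 8 did. A match describes letters in the window and shows no binding.

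Oasl2, an antiviral protein related to the oligoadenylate synthetases, was at 18.9, 15.8 and 21.6 in naphthalene 1 to 3 and at 31.5, 42.6, 48.2, 38.6 and 38.6 in osimertinib 1 to 5. Every osimertinib library lay above every naphthalene and control library (control 23.4 to 26.7). The log2 difference was 1.05 (SE 0.14), 1.15 in osimertinib 2 alone, and it rose in DESeq2 (adjusted p = 0.000345). Isg15, a ubiquitin-like protein joined to others during the antiviral response, was at 1.58, 1.19 and 3.67 in naphthalene, from 5, 3 and 8 reads, and at 6.26, 8.47, 21.1, 7.98 and 7.46 in osimertinib. Osimertinib 3 was the highest by far, and the lowest osimertinib library still exceeded the highest naphthalene and control libraries (control 3.34 to 4.34). It rose in DESeq2 (adjusted p = 0.0183), with a limma log2 difference of 1.79 (SE 0.34, adjusted p = 0.178).

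Stat2, which carries the interferon signal to the nucleus, was at 28.1, 28.5 and 27.5 in naphthalene and at 39.3, 46.3, 65.3, 39.6 and 40.1 in osimertinib. The groups did not overlap, and the log2 difference of 0.67 (SE 0.15) was 0.70 in osimertinib 2. Ifit1, which binds viral RNA, was at 14.5, 7.52 and 13.8 against 16, 31, 28, 20.7 and 23. Here osimertinib 2 was the highest library. Ifngr1, a chain of the interferon gamma receptor and named after its values were seen, was at 70 to 85.8 in naphthalene and 97.2 to 106 in osimertinib and rose in DESeq2 (adjusted p = 0.0452).

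Among the targets of interferon gamma, the guanylate-binding protein Gbp6 was at 21.2, 14.6 and 22.9 in naphthalene and at 31.2, 41.6, 52.5, 43.2 and 40.8 in osimertinib. It rose in DESeq2 (adjusted p = 0.00613), and control lay between at 28 to 38.7. The immunity-related GTPase Irgm2 was at 25.3, 23.7 and 28.9 against 37, 65.9, 64.1, 46.4 and 47.2. It rose too (DESeq2 adjusted p = 0.0183), but control, at 37.7 to 49.1, was within the osimertinib range. Gbp3 (14.2 to 17.9 in naphthalene, 19.9 to 28.1 in osimertinib) and the GTPase Igtp (9.16 to 14.2 and 16.2 to 41.8) did not overlap either.

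Genes that load peptides onto MHC class I lay on the same side with smaller differences: 12 of 12 were above 0, 3 did not overlap and the median was 0.36 (0.24 in osimertinib 2). Nlrc5, the transactivator of MHC class I genes, was at 18.9, 19.8 and 18.8 in naphthalene and 26, 34.1, 48.1, 29.7 and 26.3 in osimertinib. The peptide transporter subunit Tap1 was at 28.9 to 32.5 against 35.3 to 46.2, and the immunoproteasome subunit Psmb9 at 11.1 to 12.8 against 15.8 to 43.1. For all 3 the control median lay within the osimertinib range, so naphthalene was the low group. Control, like the osimertinib libraries other than osimertinib 2, also lacked the high read share of ENSMUSG00000119584. The part of read share in this was not tested. H2-T23, a non-classical class I molecule, overlapped (36 to 51.9 and 47.4 to 89.1).

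These counts moved with single libraries. Leaving out a library of the 2 groups can only keep or raise a count without overlap, so a rise was fixed in advance. Without naphthalene 3 the members that did not overlap were 21 of 25, 11 of 16 and 6 of 12 for the 3 lists, against 19.3% of all genes. Without osimertinib 1 they were 17, 8 and 5, against 7.32% of all genes. Without osimertinib 3 they were 11, 6 and 5, against 9.71% of all genes. Without naphthalene 2 the count at an unadjusted p under 0.05 was 6 in place of 10 for interferon gamma targets and 2 in place of 5 for class I genes.

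**Figure D2:**
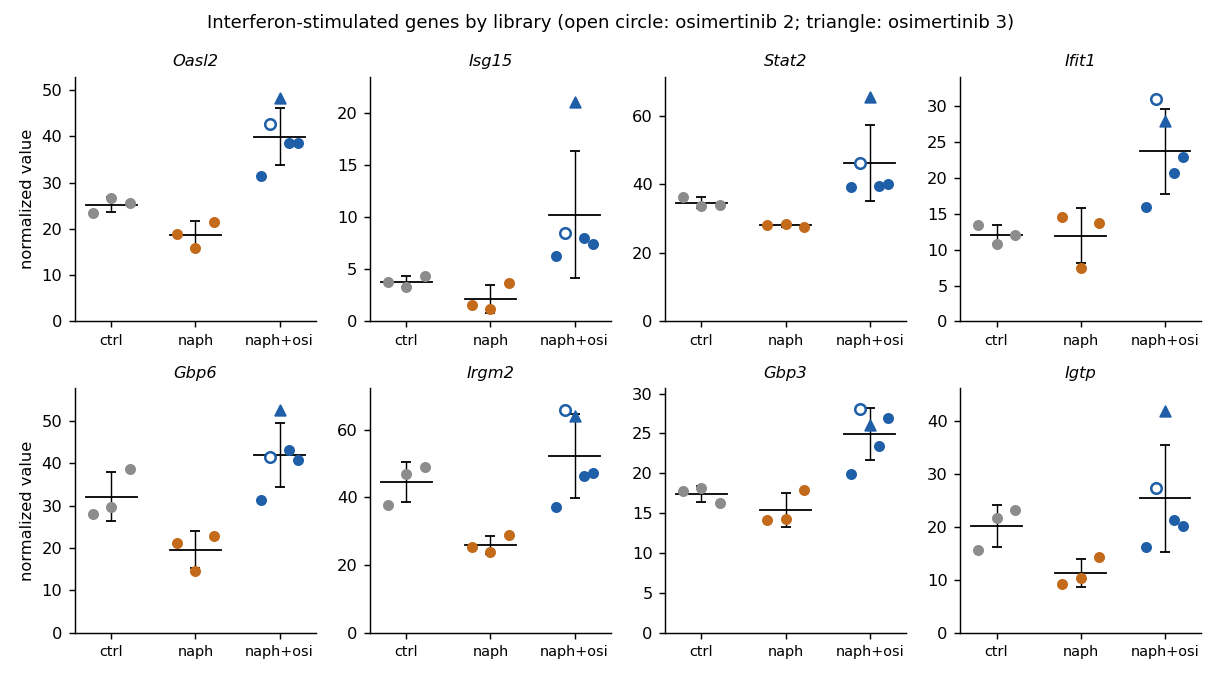
Normalised values of 8 interferon-stimulated genes in control (ctrl), naphthalene (naph) and naphthalene then osimertinib (naph+osi), 1 point per library, with the mean as a line and the SD as a bar. In each panel all 5 osimertinib points, the open osimertinib 2 included, lie above all 3 naphthalene points. The genes were named by smallest unadjusted p within their lists, so this separation is a description.

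B cell genes were lower after osimertinib. All 18 genes of the list lay below 0, 16 did not overlap and 18 had an unadjusted p under 0.05, with a median of -0.99. The summed level of the list was 297 to 417 in naphthalene, 277 to 429 in control and 103 to 214 in osimertinib, and 183 in osimertinib 2, which lay below the naphthalene range in 16 of 18 genes. In the 16 genes that did not overlap the control median was within the naphthalene range in 10 and above it in 6. In bulk lung, fewer B cells and less RNA per B cell cannot be told apart.

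Ms4a1, the surface protein CD20, was at 37.9, 45.1 and 24.3 in naphthalene and at 15.2, 10.9, 7.66, 22.4 and 8.73 in osimertinib. The highest osimertinib library, osimertinib 4, came close to naphthalene 3 without reaching it. It fell in DESeq2 (adjusted p = 0.0183), with a limma log2 difference of -1.45 (SE 0.30, adjusted p = 0.188) and of -1.59 in osimertinib 2. The signalling scaffold Bank1 was at 35.7, 41.5 and 27.5 against 13.7, 13.8, 9.98, 18.4 and 5.73, and it fell in DESeq2 (adjusted p = 0.0146). Cd79a, a chain of the B cell receptor complex, was at 21.8, 31.6 and 23.4 against 15.1, 11.6, 12.4, 12.4 and 6.06, and fell (adjusted p = 0.0452). Osimertinib 5 was the lowest library for Bank1 and Cd79a.

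The inhibitory receptors Siglecg and Btla, outside the list, were lower as well. Both were named because their groups did not overlap, and inhibitory receptors as a class were not examined. Siglecg, a sialic acid receptor that restrains B cells, was at 12, 17 and 11.5 in naphthalene and at 6.64, 5.03, 6.06, 5.45 and 3.2 in osimertinib, a log2 difference of -1.22 (SE 0.22) that DESeq2 called (adjusted p = 0.00574). Btla, which is found on B and T cells, was at 24.6, 24.5 and 26.2 against 11.7, 13.5, 10.7, 16.2 and 7.26 and fell as well (adjusted p = 0.0183). Among list members named after their values were seen, DESeq2 also called the transcription factor Pax5 (17 to 38.4 and 4.01 to 14), the inhibitory receptor Cd22 (19.3 to 26.1 and 7.2 to 14.5) and the follicle-homing receptor Cxcr5 (6.42 to 12.3 and 2.4 to 6.09) lower. The Fc receptor-like Fcrla, at 5.68 to 10.1 against 2.23 to 4.58, did not overlap.

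Genes of plasma cells and immunoglobulins were mixed in strength. Of 12 kept, 11 lay below 0 and 2 did not overlap: Ighd, the heavy chain of naive B cells, at 31.3 to 41.5 in naphthalene and 6.2 to 22.9 in osimertinib, and the light chain Iglc2 at 10.4 to 17 and 2.4 to 9.8. The IgM heavy chain Ighm overlapped widely, at 97.6, 363 and 98.2 against 54.7, 94.8, 164, 61.7 and 53. Immunoglobulin genes are near copies of each other, so reads may be shared among them.

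MHC class II genes lay on both sides, with 6 of 9 above 0 and a median of 0.17. H2-Ob, a chain of the H2-O molecule found mostly in B cells, was at 23, 29.3 and 22.9 in naphthalene and at 17.3, 11.4, 12.5, 16.6 and 6.06 in osimertinib. H2-DMb2, a peptide-loading chain, was at 12.9, 20.6 and 14.7 against 9.62, 8.74, 6.5, 8.25 and 5.33 and fell in DESeq2 (adjusted p = 0.0481). These were the 2 of 9 class II genes that did not overlap. The presenting chain H2-Ab1 (119 to 131 and 121 to 180) and the loading chain H2-DMb1 (17.9 to 20.2 and 19.8 to 38.2) overlapped, with log2 differences of 0.22 and 0.40. The difference between the members was not tested.

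Of 11 naive T cell genes kept, 8 lay below 0, 4 did not overlap and 6 had an unadjusted p under 0.05 (median -0.43, -0.31 in osimertinib 2). Lef1, a transcription factor of naive T cells, was at 12, 13.4 and 12.4 against 8.93, 7.68, 4.99, 9.18 and 8.26, with a log2 difference of -0.65 (SE 0.17) and the same value in osimertinib 2. The survival receptor Il7r (12.3 to 15.8 and 7.48 to 12.1) and the chromatin organiser Satb1 (27.5 to 32.2 and 8.29 to 24.7) did not overlap. Control held 8.47 to 11.3 of Il7r, so for this gene naphthalene was the high group, while Satb1 in control was at 31.4 to 38.6.

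The T cell receptor chain Cd3e was at 5.68, 5.54 and 5.97 in naphthalene and at 4.05, 4.24, 2.05, 4.46 and 2.8 in osimertinib. It was the 1 of 16 pan T cell genes that did not overlap (6.25%, against 5.94% of all genes). The list median was -0.15, and osimertinib 2 lay below the naphthalene range in 11 of 16. Of 11 helper and regulatory T cell genes 0 did not overlap, and the median was 0.04. Cd4 itself was at 4.74, 1.19 and 1.84 in naphthalene, from 15, 3 and 4 reads, and at 1.6 to 3.19 in osimertinib, so no difference was detectable at this depth. Cd8a overlapped by little (2.77 to 4.59 and 1.78 to 3.13), and of 15 genes of cytotoxic lymphocytes and NK cells 14 lay below 0, 0 did not overlap and 4 had an unadjusted p under 0.05 (median -0.43).

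**Figure D3:**
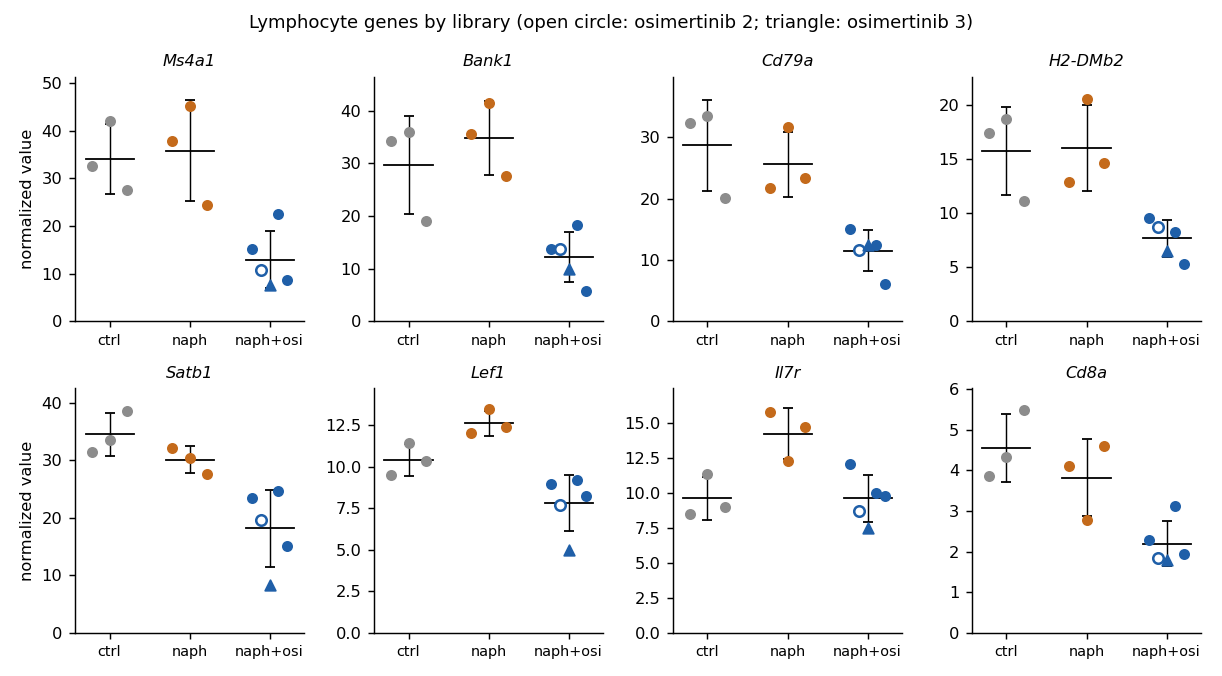
Normalised values of lymphocyte genes by library, with groups and symbols as for the interferon genes. Osimertinib points lie below naphthalene points in all panels but Cd8a, where they overlap, and control 3 lies below the naphthalene range for Bank1 (19), Cd79a (20.2) and H2-DMb2 (11.2).

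The B cell and naive T cell counts rest on the deposited scale. With equal totals in all libraries, 0 B cell genes did not overlap and 4 naive T cell genes lay above naphthalene, on a scale where the median gene moved from 0.06 to 1.11. Measured from the median gene, 18 of 18 B cell genes and 8 of 11 naive T cell genes were lower on the deposited scale and under each of the 4 other scalings. Without osimertinib 2, 18 of 18 B cell genes did not overlap, and without osimertinib 3 or naphthalene 3 it was 16 and 17. Over all genes these shares were 8.92%, 9.71% and 19.3%.

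Macrophage genes mostly lay above 0, and DESeq2 called none of either macrophage list. Of 19 genes of monocyte-derived macrophages 18 lay above 0, 7 did not overlap and 8 had an unadjusted p under 0.05 (median 0.39), and osimertinib 2 lay above the naphthalene range in 12. Gpnmb, a glycoprotein of lipid-laden and repair macrophages, was at 7.26, 9.89 and 10.1 in naphthalene and at 34, 25.4, 22.5, 13 and 10.6 in osimertinib. The osimertinib libraries differed widely, with osimertinib 5 next to naphthalene. The lipid receptor Trem2 was at 1.89, 1.19 and 0.459, from 6, 3 and 1 reads, against 4.35, 2.65, 5.52, 3.06 and 1.93. Its groups touched, with the lowest osimertinib library barely above the highest naphthalene library.

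The lipid carrier Apoe was at 136 to 180 in naphthalene and 184 to 218 in osimertinib. The complement chains C1qb (12.3 to 15.4 and 16.4 to 37.3) and C1qc (10.6 to 13.8 and 14.9 to 40.5), made by tissue macrophages, had their highest values in osimertinib 3. Without osimertinib 3 the list had 8 members that did not overlap, against 9.71% of all genes, and without naphthalene 3 it had 11, against 19.3%. None of these genes was called by DESeq2. In 6 of the 7 the control median lay within the naphthalene range.

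Of 15 alveolar macrophage genes 11 lay above 0, 0 did not overlap and 3 had an unadjusted p under 0.05. The integrin Itgax (CD11c) was at 32.2, 29.3 and 47.7 against 62.4, 56.9, 62.4, 42.5 and 51.2, and the chitinase-like Chil3 at 253 to 419 against 365 to 761. The scavenger receptor Marco pointed the other way (4.35 to 8.26 and 3.03 to 5.57), with a log2 difference of -0.46 (SE 0.22). Of 11 dendritic cell genes 8 lay above 0 and 2 did not overlap. Chemokines of dendritic cells and macrophages that call T cells were low: Ccl22 was at 2.53 to 5.14 and 4.35 to 10.1, and Ccl17 at 0.947 to 1.98 and 2.12 to 11.5, the highest in osimertinib 3. Ccl21a, the chemokine that draws CCR7-bearing naive T cells, was at 28.1, 27.3 and 35.3 against 40.8, 46.3, 114, 40.9 and 36. Its groups did not overlap while Ltb, a lymphotoxin of lymphocytes, was at 7.26 to 13.4 against 4.13 to 8.55.

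Inflammatory genes other than these were few among the genes kept. Of 17 cytokine and acute phase genes 7 were kept, 4 lay above 0 and 1 did not overlap, and Il6 was below the level needed to be kept. It was Saa3, an acute phase protein made in lung, at 0.631, 0 and 0 in naphthalene (2, 0 and 0 reads) and at 1.68, 1.85, 5.35, 7.32 and 2.67 in osimertinib (22, 7, 60, 110 and 40 reads). Control was at 0.227 to 0.535, so Saa3 reached the level needed to be kept only through the osimertinib libraries, and its lack of overlap supports nothing about the list. Cfb, a complement factor, was at 17.4 to 21.8 against 19.8 to 42.1, and the interleukin 33 receptor Il1rl1 at 3.21 to 3.96 against 3.99 to 5.82.

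Of 20 extracellular matrix genes 18 lay above 0, 5 did not overlap, 7 had an unadjusted p under 0.05 and the median was 0.23. Eln, the elastin precursor, was at 146, 104 and 69.8 in naphthalene and at 216, 265, 236, 182 and 244 in osimertinib, a log2 difference of 1.15 (SE 0.24) and of 1.37 in osimertinib 2. It rose in DESeq2 (adjusted p = 0.0481), and control spanned 85.9 to 166, below every osimertinib library. Col3a1, the collagen of elastic tissue and early repair, was at 326, 354 and 259 against 495, 475, 445, 489 and 627, and rose (DESeq2 adjusted p = 0.0183). Mmp2, a matrix metalloproteinase of fibroblasts, was at 51.1, 54.2 and 39.9 against 79.1, 67.2, 82.7, 67.3 and 77.7 and rose too (adjusted p = 0.0179). Control Mmp2 lay at 35.2 to 35.6, below both groups.

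Col5a2, which sets the width of collagen fibrils, did not overlap (46.4 to 58.4 and 72.7 to 93.2). Col1a1, the most abundant fibrillar collagen, overlapped: it was at 164, 225 and 92.2 in naphthalene and at 233, 250, 105, 295 and 322 in osimertinib. Its low libraries were naphthalene 3 and osimertinib 3, both of which stood apart on the first principal component. Ccn2, a matricellular target of TGF-beta and mechanical strain, was at 42, 40 and 32.6 against 71.1, 50.3, 65, 58.5 and 83 and rose in DESeq2 (adjusted p = 0.0499). It was the 1 of 13 TGF-beta genes that did not overlap (7.69%, against 5.94% of all genes). Mmp19, a metalloproteinase of stroma and macrophages, was at 10.4, 11.1 and 9.18 against 17.6, 22, 14.3, 19.1 and 18.8.

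Of 13 fibroblast genes 11 lay above 0, 0 did not overlap and the median was 0.15, and summed levels were 2199 to 2978 in naphthalene and 2371 to 2763 in osimertinib. Of 11 smooth muscle genes 6 lay above 0, and Hhip, which binds hedgehog proteins, lay below naphthalene in all 5 libraries (41.5 to 57.4 and 24.5 to 39.1). Endothelial Sox17, a transcription factor of arteries, was at 21.8, 21 and 24.8 against 29.3, 34.1, 31, 30.5 and 32.6. It was the 1 of 16 endothelial genes that did not overlap (6.25%, against 5.94% of all genes). The tight junction gene Cldn5 was at 82.4 to 113 against 101 to 171, with osimertinib 2 the lowest of its group. Without osimertinib 3 the extracellular matrix list had 8 members that did not overlap, against 9.71% of all genes. Without naphthalene 3 it had 6, against 19.3% of all genes, with a median of 0.12.

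**Figure D4:**
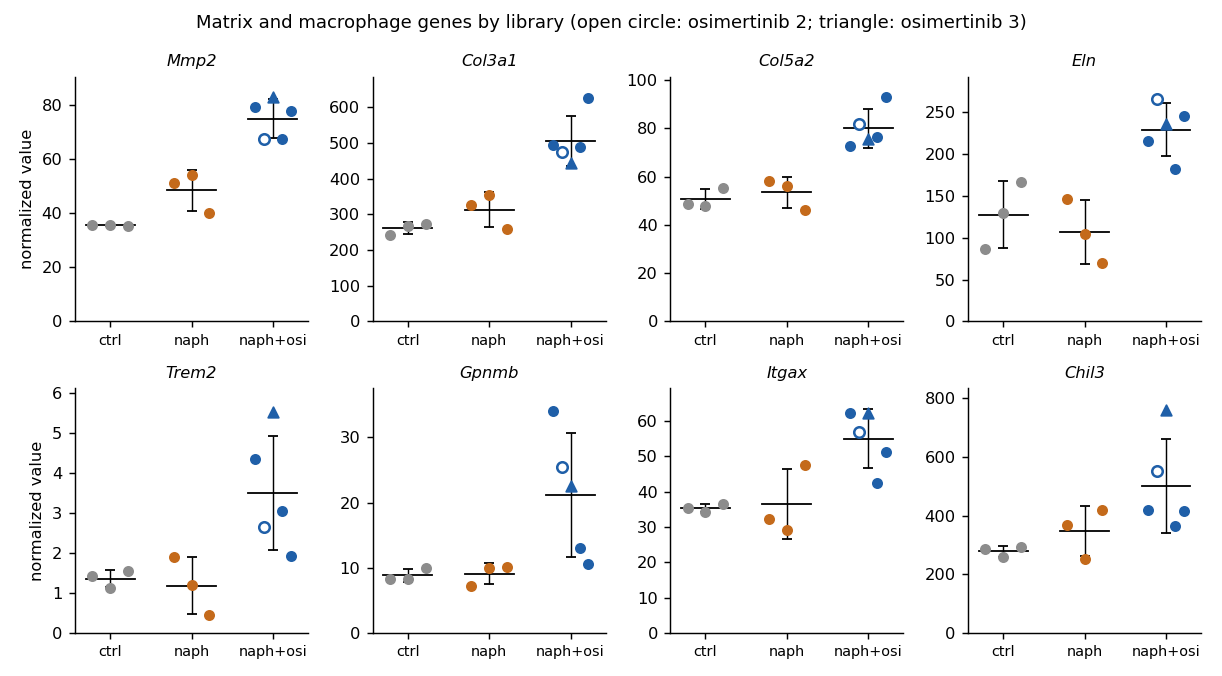
Normalised values of matrix genes (upper row) and macrophage genes (lower row) by library, with groups and symbols as for the interferon genes. All osimertinib points exceed all naphthalene points for the 4 matrix genes, Trem2 and Gpnmb, while Itgax and Chil3 overlap.

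In the airway epithelium club cell genes were low in both groups. The list median was -0.40 in osimertinib against naphthalene and, with the same naphthalene libraries, -0.40 in naphthalene against control. Of 17 genes 13 lay below 0, 2 did not overlap and 3 were lower at an unadjusted p under 0.05. Scgb1a1, the secretoglobin that club cells release in bulk, was at 3965, 7494 and 8387 in naphthalene and at 7664, 1737, 3484, 5524 and 4946 in osimertinib, against 10078 to 12579 in control. The groups overlapped, and osimertinib 2 was the lowest library. Cyp2f2 was at 647 to 1203 in naphthalene and 283 to 948 in osimertinib. Cldn10, a claudin of club cells, went the other way at 4.13 to 5.14 against 4.5 to 8.47, with control at 12 to 15.

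Pon1, a paraoxonase of club cells, was at 20.2, 20.6 and 30.7 in naphthalene and at 15.5, 7.94, 5.79, 12.2 and 12.3 in osimertinib, and control was at 24.2 to 36.3. Its groups did not overlap, with a log2 difference of -1.12 (SE 0.27) and of -1.45 in osimertinib 2, and DESeq2 did not call it (adjusted p = 0.0574). The cytochrome P450 Cyp2a5 was at 22.1, 36.8 and 6.88 against 3.12 to 16.1. The keratin Krt8, a mark of injured epithelium, overlapped (69.1 to 91.3 and 67.4 to 146).

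Of 15 alveolar type 2 cell genes 13 lay above 0 and 0 did not overlap (median 0.16). The surfactant protein gene Sftpc was at 8522, 6402 and 11037 against 6978 to 17256, and Sftpd at 321 to 367 against 332 to 650. Osimertinib 3 was the highest library for both. Hc, the complement component C5, was at 676 to 960 against 825 to 1418. Of 13 alveolar type 1 cell genes 12 lay below 0 and 0 did not overlap (median -0.11), and osimertinib 2 lay below the naphthalene range in 12 of 13. The membrane protein Pdpn was at 73.2 to 103 against 52.1 to 85.8, and the anchoring protein Akap5 at 424 to 525 against 220 to 447.

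The receptor that osimertinib inhibits, Egfr, was at 48.3, 45.9 and 39 in naphthalene and at 36.4, 40, 26.6, 40.6 and 51.8 in osimertinib, a log2 difference of -0.20 (SE 0.17), within the spread of the libraries. Of 10 genes of the receptor family and its ligands 7 lay above 0 and 0 did not overlap. The ligand Areg was at 1.89 to 3.56 against 2.99 to 12.5, the highest in osimertinib 3, and the partner receptor Erbb3 at 51.4 to 57.8 against 55.9 to 78.1. Of 12 genes used as a readout of ERK, the kinase downstream of the receptor, 9 lay above 0 (median 0.17). Among them 1 did not overlap (8.33%, against 5.94% of all genes). That was the transcription factor Myc, at 6.31, 6.33 and 8.26 against 4.35, 4.24, 3.47, 5.59 and 5.13. The ERK phosphatase Dusp6 was at 43.9 to 60.1 against 57.2 to 70.5, and the feedback gene Phlda1 at 17.9 to 24 against 22.9 to 41.6, and both overlapped.

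Of 17 clock genes 6 lay above 0 and 11 below, with none called by limma or DESeq2, and 4 in each direction had an unadjusted p under 0.05. In all, 3 did not overlap and were higher: the clock activator Npas2 (8.84, 5.54 and 5.51 against 11.8, 15.9, 14.3, 15 and 13.9), the repressor Cry1 (5.05 to 8.52 and 9.79 to 12.7) and the D-box repressor Nfil3 (2.29 to 5.68 and 6.78 to 13.5). Dbp, the D-box activator that peaks opposite to these, was at 6.63, 20.6 and 56.4 against 8.55, 2.91, 2.67, 6.52 and 4.6. Named after their values were seen, the repressor Nr1d1 was at 49.3, 129 and 141 against 20.7 to 57.1 and Nr1d2 at 39.5 to 99.6 against 28.8 to 47.7, while the activator Arntl was at 9.64 to 24.3 against 23.7 to 29. Naphthalene 1 was nearer to osimertinib than naphthalene 2 and 3 for Dbp, Nr1d1, Nr1d2 and Arntl. Control spanned 3.28 to 18.2 for Dbp and 30.6 to 89.5 for Nr1d1. The hour of collection is not in the labels used here, and its part in any result was not tested.

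Of 14 glucocorticoid targets 14 lay above 0, 2 did not overlap and 6 had an unadjusted p under 0.05 (median 0.56, 0.40 in osimertinib 2). The cell cycle inhibitor Cdkn1a, which p53 and glucocorticoids induce, was at 20.5, 24.1 and 25.7 against 39.2, 37.1, 42.7, 35.8 and 57.8, a log2 difference of 0.81 (SE 0.18). It was also the 1 of 15 p53 targets that did not overlap (6.67%, against 5.94% of all genes). The kinase Sgk1 was at 53.8 to 67.9 against 71.2 to 117, and Angptl4, an inhibitor of lipoprotein lipase, at 6.72, 6.95 and 24.8 against 17.6 to 37.9. Fkbp5, a chaperone of the glucocorticoid receptor, overlapped (9.47 to 11.9 and 8.64 to 21.3), and so did the kinase Pdk4 (3.56 to 6 and 5.05 to 10.8). Without naphthalene 3 the list had 6 members that did not overlap, against 19.3% of all genes. Without osimertinib 3 or osimertinib 4 it had 4, against 9.71% and 7.33% of all genes. Its count at an unadjusted p under 0.05 was 1 without naphthalene 2 and 2 without naphthalene 1.

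Among stress genes the chaperone Hspa1a was at 3.79, 3.56 and 3.67 in naphthalene and at 8.32, 27.3, 4.54, 5.32 and 39.2 in osimertinib, so that osimertinib 2 and 5 set the mean. The chaperone Hsph1 was at 18.4 to 26.2 against 28.2 to 70.8, and 9 of 9 heat shock genes lay above 0. Among 14 immediate early genes, the nuclear receptor Nr4a1 was at 34.1, 33.2 and 61 against 24.4, 15.4, 25.5, 24.3 and 23.7, and control at 42.8 to 94.4. Egr1 (14.7 to 57.1 and 11.1 to 37.6) and the phosphatase Dusp1 (49.1 to 108 and 82.1 to 227) overlapped and pointed in opposite directions.

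Mitosis genes were highest in osimertinib 3. Of 16 genes 15 lay above 0, with a median of 0.43 for the group and 0.06 in osimertinib 2. The mitotic kinase Cdk1 was at 1.58, 1.19 and 0.459 in naphthalene, from 5, 3 and 1 reads, and at 1.91, 2.12, 10.7, 2.99 and 2.47 in osimertinib, and the motor Kif11 at 0.791 to 3.79 against 3.05 to 10.6. Mki67, a protein of cycling cells, was at 25.3 to 34 against 16.7 to 71.5. The highest value of all 3 was in osimertinib 3, and without it the difference of Mki67 was -0.11 in place of 0.16.

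Of erythroid genes 7 of 7 lay above 0 with a median of 0.77, but osimertinib 2 was at -0.11, and summed levels were 376 to 2761 in naphthalene and 747 to 10365 in osimertinib.

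Most mitochondrial transcripts were lower, and osimertinib 2 lay nearer to naphthalene than the others for several. Of 15, 10 lay below 0, 5 did not overlap and were lower, and the median was -0.53, with -0.34 in osimertinib 2 and -0.62 in the other 4. The ribosomal RNA mt-Rnr1 was at 27303, 36836 and 101060 in naphthalene, 26723 in osimertinib 2 and 54.3 to 314 in the other osimertinib libraries. The ATP synthase subunit mt-Atp8 was at 80.2, 108 and 96.4 against 26.3, 71.5, 33.5, 29.2 and 27.3, with osimertinib 2 nearest to naphthalene, and it fell in DESeq2 (adjusted p = 0.0146). The neighbouring subunit mt-Atp6, named after its values were seen, was the other way round: 95, 178 and 138 in naphthalene, 79.9 in osimertinib 2 and 963 to 2206 in the other 4. DESeq2 called it higher (adjusted p = 0.0348), and osimertinib 2 taken alone lay below naphthalene. The complex I subunits mt-Nd1 (1238 to 1604 and 812 to 1094) and mt-Nd2 (900 to 1134 and 550 to 808) fell in DESeq2 (adjusted p = 0.0146 and 0.0183), osimertinib 2 included.

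The leading genes outside these lists were chosen because their groups did not overlap, so their separation is no finding in itself. Hmgn2, a nucleosome-binding protein, was at 41.4, 42.3 and 46.8 against 62.1, 61.4, 72.3, 86.3 and 72.2 and rose in DESeq2 (adjusted p = 0.00692). The signalling regulator Rgs12 was at 42.6, 40 and 49.1 against 68.5, 62.2, 66.6, 60.1 and 59 and rose (adjusted p = 0.025), and Camk2n1, an inhibitor of the kinase CaMKII, was at 25.7 to 28.7 against 36.7 to 43.1. In control Rgs12 was at 62.7 to 66.1 and Camk2n1 at 40.2 to 45.3, at the osimertinib level. Spats2l (8.31 to 11.5 and 14.3 to 18.6) and the zinc finger gene Zfp219 (13.3 to 18.9 and 22.6 to 32.4) were higher, and Ccdc77 (11.5 to 12 and 6.09 to 8.2), the lipid remodelling enzyme Pgap1 (32 to 34.1 and 17.3 to 24.1) and the transcription factor Arid3b (19.3 to 23.4 and 12.4 to 15.3) lower, each without overlap.

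Other genes that DESeq2 called, named after their values were seen, had larger differences. Cacna1i, a chain of a T-type calcium channel, was at 6.95, 10.7 and 6.42 in naphthalene and at 3.05, 2.65, 1.34, 3.06 and 1.6 in osimertinib, without overlap (adjusted p = 0.00574), from 10 to 46 reads in each library. Gm10163, a predicted gene, was at 0.947, 0 and 1.84 in naphthalene and at 28.9, 1.85, 72.1, 17 and 24.5 in osimertinib (adjusted p = 0.00676), with control at 28 to 31.5. Osimertinib 2, with 7 reads, lay just above the highest naphthalene library.

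In the control libraries both levels were met. Of the 619 genes in which osimertinib lay above naphthalene, the control median was within the osimertinib range in 387 (62.5%) and within the naphthalene range in 87 (14.1%). Of the 344 in which it lay below, these were 159 (46.2%) and 102 (29.7%). The naphthalene values also chose these genes, so the shares are a description. Against them, the B cell list had 0 of 16 genes with control in the osimertinib range, the monocyte-derived macrophage list 0 of 7 and the matrix list 0 of 5, while class I presentation had 3 of 3 and mitochondrial transcripts 5 of 5.

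**Figure D5:**
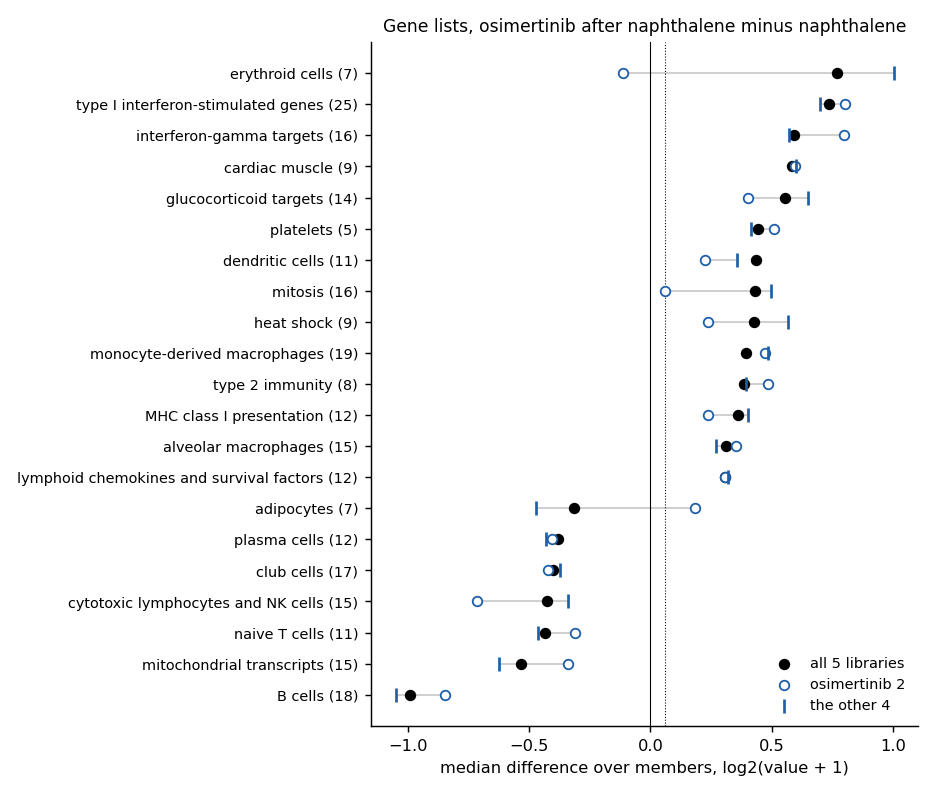
Median difference over the members kept of each of the 21 gene lists with a median of at least 0.3 in size, in log2(value + 1), for all 5 osimertinib libraries, osimertinib 2 and the other 4, with the number of members in brackets and the median of all genes as a dotted line. B cells lie at -0.99, type I interferon-stimulated genes at 0.74, and osimertinib 2 crosses 0 for erythroid cells and adipocytes.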

How the data were processed

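The deposited table holds 1 signal value per gene and library, for 23255 genes and 11 libraries, which the authors scaled by a normalised library size. Per the submitters' processing notes, Trimmomatic 0.38, RSEM 1.3.0, Bowtie2, edgeR and GRCm39 were used; their roles are not given in the sources used here. Every value was a whole multiple, within 0.01, of what 1 read is worth in its library (100% of values), so whole reads were recovered for the count tests.

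The main test was limma 3.58.1 (R 4.3.3) on log2(value + 1) over genes with a mean of at least 1, with all 3 groups in 1 fit (8 residual degrees of freedom), a variance trend and Benjamini-Hochberg adjustment at 0.05. DESeq2 1.42.0 and edgeR 4.0.16, run on these reads, were alternatives. DESeq2 gave no adjusted p for 1961 genes. The members and lists were chosen with earlier results of these data known, so counts over lists carry no test. Named genes were of 3 kinds. The 10 leading genes in each direction had groups that did not overlap, a mean of at least 5 and the smallest unadjusted p. Up to 4 members per list had a mean of at least 2 and the smallest unadjusted p, and 22 genes were chosen by role. Lack of overlap is therefore built in for the leading genes and favoured for the list members. Others are named as chosen after their values were seen. Replicate numbers are shared between the groups, and same-numbered libraries deviated together with correlations of 0.12, 0.16 and 0.52; naphthalene 1 and 2 correlated best with osimertinib 4 (0.23 and 0.27). A fit with the number as a block was an alternative. The limma fit was checked on simulated counts, and DESeq2 and edgeR were not. Outside the planted changes the simulation gave each gene the same share in all libraries. It therefore lacked the unequal share of ENSMUSG00000119584. Other alternatives were the pseudocount, the filter, the scaling, array weights, a term for the read share of ENSMUSG00000119584 and leaving out libraries. No name was found for 132 genes, and 55 genes shared all their values with some other gene. Promoter windows came from RefSeq. Some members counted in the lists are not reported here by name.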

Additional observations from a re-analysis of the deposited data

Results flagged for a closer look

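Within the 5 osimertinib libraries 20 of 117 sets of values had 1 library far from the other 4 by Dixon's test at the 95% level, which chance meets in about 1 in 20 sets. The library was osimertinib 3 in 12, osimertinib 2 in 6 and osimertinib 5 in 2. For osimertinib 2 the 6 hold ENSMUSG00000119584 and mt-Rnr1 each as a value and as a read share, and the former is what singled this library out, so its count is a description.

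Osimertinib 3 was the high library for 6 immune genes: Isg15 at 21.1 (others 6.26 to 8.47), Stat2 at 65.3 (39.3 to 46.3), Psmb9 at 43.1 (15.8 to 19.0), C1qc at 40.5 (14.9 to 20.9), Ccl17 at 11.5 (2.12 to 4.80) and Ccl21a at 114 (36.0 to 46.3). It was not so for all such genes: Ifit1 and Irgm2 were highest in osimertinib 2 (31 and 65.9) and Gpnmb in osimertinib 1 (34). Osimertinib 3 was also high for Sftpc at 17256 (6978 to 9214), Krt8 at 146 (67.4 to 81.8) and the EGFR ligand Areg at 12.5 (2.99 to 4.60), while the club cell gene Pon1 was lowest there (5.79). The kinase Sgk1 was at 117 (71.2 to 77.6), and the mitotic genes Cdk1 and Kif11 were at 10.7 (1.91 to 2.99) and 10.6 (3.05 to 4.46).

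Osimertinib 5 was high for Col3a1 at 627 (445 to 495) and for the chaperone Hsph1 at 70.8 (28.2 to 36.0). Osimertinib 2 was low for Nr4a1 at 15.4 (23.7 to 25.5) and high for mt-Atp8 at 71.5 (26.3 to 33.5), mt-Rnr1 at 26723 (54.3 to 314) and ENSMUSG00000119584 at 613870 (138 to 271). The last 2 took 1.91% (0.00831 to 0.0271%) and 43.9% (0.0214 to 0.0337%) of its reads. What sets these libraries apart was not tested.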

How the results depend on the processing

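Naphthalene libraries and osimertinib 2 held at most 2965328 reads outside ENSMUSG00000119584, so low genes such as Cd4 and Cdk1 rest on few reads there.

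Against 0 genes called, equal totals gave 14282, equal totals without ENSMUSG00000119584 7, quantile normalisation 1, the 2 groups alone 1 and array weights 4. DESeq2 gave 33, leaving out osimertinib 2 and 3 together 47, and leaving out osimertinib 3 and naphthalene 3 together 189. With the read share term, osimertinib 2 is the only library that sets the drug difference. That fit equals osimertinib 2 alone, so only its differences are given. Leaving out single libraries gave 0 to 11, the most without osimertinib 2. Leaving out pairs of libraries was chosen after the data were seen. The replicate block called 0 genes, with 1549 at an unadjusted p under 0.05, and changed no call.

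Against 1671 genes at an unadjusted p under 0.05, equal totals gave 14419, equal totals without that gene 2659, the read share term and osimertinib 2 alone 1077 each, leaving out osimertinib 3 and naphthalene 3 3053, DESeq2 1012, and single libraries 1419 to 2248. Against 963 genes without overlap, equal totals gave 8675, osimertinib 2 alone 7188, the 2 pairs left out 2437 (osimertinib 2 and 3) and 3954 (osimertinib 3 and naphthalene 3), and single libraries 963 to 3124, the most without naphthalene 3. Fewer libraries make overlap rarer. Of the 1448 genes in which the other 4 all lay outside the naphthalene range, osimertinib 2 lay on their side in 66.5%; this share was 62.5% with no filter, 72.1% with equal totals, 52.5% with equal totals without that gene, 71.0% without osimertinib 3 and naphthalene 3, and 59.5 to 74.5% without single libraries.

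Of 114 named genes under 29 alternatives, 107 kept their sign. Most of these genes were chosen by small unadjusted p or lack of overlap, which favours a kept sign. Where groups do not overlap, leaving out libraries cannot change the sign, so this count is a description. The 29 count the read share term and osimertinib 2 alone separately, although both give the same differences. Under equal totals, differences are from the median gene. Cd4 (0.04) was -0.0036 with a pseudocount of 5, -0.32 with equal totals, -0.066 with equal totals without that gene, -0.071 with the replicate block, -0.20 with the read share term or osimertinib 2 alone, -0.16 with edgeR and DESeq2 and between -0.25 (without naphthalene 2) and 0.44 (without naphthalene 1) when single libraries were left out. Scgb1a1 was 0.61 with quantile normalisation. With the read share term or osimertinib 2 alone, Cldn10 was -0.066, mt-Atp6 -0.73 and Mki67 -0.030. With array weights Sftpc was -0.013, Krt8 -0.065 and Mki67 -0.059. Leaving out single libraries gave Sftpc -0.058 to 0.35, Krt8 -0.12 to 0.19 and Mki67 -0.11 to 0.40, each lowest without osimertinib 3, and without osimertinib 2 and 3 they were -0.12, -0.18 and -0.13. Without osimertinib 3 and naphthalene 3 Krt8 was -0.00798 and Mki67 -0.099. Of 27 list medians, measured from the median gene, 22 kept their sign. Only lists with at least 5 members kept and a median at least 0.2 from the median gene were followed. That choice favours a kept sign, and the other lists were not followed. With the read share term or osimertinib 2 alone, erythroid cells were at -0.12, mesothelium at 0.13, adipocytes at 0.18 and ribosomal proteins at -0.27. Adipocytes were at 0.013 with a pseudocount of 0.1 and at -1.56 (without naphthalene 3) to 0.31 (without naphthalene 2) when single libraries were left out, mitosis at -0.032 with equal totals, and ribosomal proteins at -0.16 (without osimertinib 3) to 0.64 (without naphthalene 3), and at -0.13 without osimertinib 2 and 3. The cause of these changes was not tested.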
